A study of Drosophila melanogaster with 11 samples.

Results

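The transcripts described here were abundant in extracts of early Drosophila melanogaster embryos and gave less signal in every Smaug RIP array than in any control RIP array. In a RIP (RNA co-immunoprecipitation), RNA is purified together with the protein that an antibody holds on beads, and in RIP-Chip this RNA is measured on a microarray. The members were chosen by their measured signals. The 15433 transcripts on the array were ranked by mean log2 input signal, the 300 highest were left out, and those above the 75th percentile (9.43) were kept, which left an input window of 3558 transcripts at ranks 301 to 3858. A transcript was a member where the highest of its 4 Smaug RIP arrays lay below the lowest of its 4 control RIP arrays. This held for 45 transcripts, 1.26% of the window.

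Smaug is an RNA-binding protein of the early embryo that recognizes stem-loops, called Smaug recognition elements, in maternal mRNAs and represses their translation or brings about their decay. The control RIP shows which mRNAs stay on the beads without a specific antibody, so a transcript bound by Smaug is expected above the control. A transcript below the control has the opposite pattern, for which the assay was not designed.

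Embryos were wild type, collected 0 to 3 hours after egg-laying from flies kept at 25 °C; the labels give the strain as Oregon-R, whereas the methods of the study name w1118. Smaug RIPs were made with a guinea pig anti-Smaug antibody and control RIPs with normal guinea pig serum, both on protein A beads with urea in the buffer. Each RIP had 3 biological replicates, of which replicate 1 was hybridized on 2 arrays (1a and 1b), and the input was total RNA of 1 reference, measured on 3 arrays, which the labels call technical replicates, whereas a supplement of the study describes its numbered replicates, inputs among them, as biological. All 4 Smaug RIP arrays were labelled with Cy5, control RIP arrays 1a and 2 with Cy5 and control RIP arrays 1b and 3 with Cy3, and the 3 inputs with Cy3. Values are log2 signals after the RMA normalization of the study, which sets each transcript against the others on its array and gives no absolute amount. Means and SDs are over 3 biological replicates, with 1a and 1b averaged first. With 3 replicates per RIP these values have limited precision.

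The files identify transcripts by FlyBase transcript number alone. Of the 15433 identifiers, 44 occur among the gene synonyms of the RefSeq table used here, and none of the 45 members is among them. No member could therefore be given a gene, a function or a place in the genome, and 2 members may be transcripts of 1 gene. No 2 of the 45 had identical values on all arrays. The gene lists fixed for ribosomal proteins, mitochondrial and histone transcripts, yolk and chorion proteins, the proteasome, the chaperonin and Smaug-bound mRNAs, and the markers of the early embryo, could not be counted among the members for the same reason.

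The lower pattern was the rarer one among abundant transcripts. In the window, 211 transcripts (5.93%) lay higher in all 4 Smaug RIP arrays than in all 4 control RIP arrays, against the 45 that lay lower, and the arrays of the remaining 3302 overlapped. Over all 15433 transcripts the shares were 1.66% lower (256 transcripts) and 2.88% higher (445 transcripts). The 1.26% in the window was thus below the 1.66% found over the whole array. The count of members by itself is not a result about abundant transcripts. How many transcripts would separate by chance was not calculated, so the 45 are not shown to exceed that number. The observed share differed most in the 300 highest inputs that the rule leaves out, where 41 transcripts (13.7%) were lower and 31 (10.3%) higher. Between the median and the 75th percentile of input it was 1.19% lower and 3.71% higher, and up to the median 1.61% lower and 0.778% higher.

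**Figure D1:**
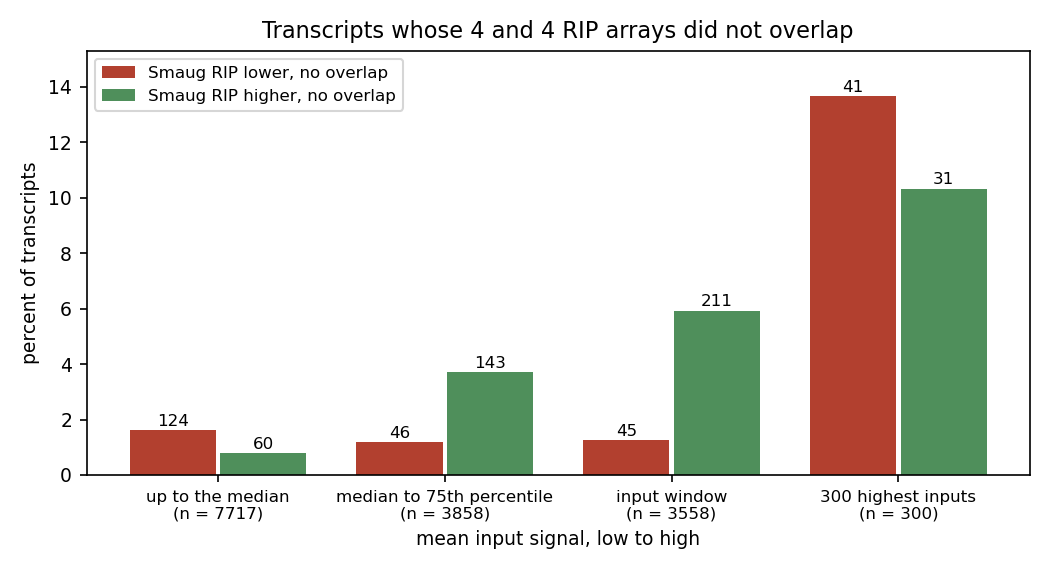
Percent of transcripts (y axis) whose 4 Smaug RIP arrays all lay below (red) or all above (green) the 4 control RIP arrays, in 4 bands of mean input signal from low to high, with the number of transcripts above each bar. The input window held 45 lower and 211 higher transcripts, and the band of the 300 highest inputs 41 and 31.

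The member with the most negative difference was FBtr0080289. Its log2 signal was 7.14, 6.95, 7.56 and 7.48 on Smaug RIP arrays 1a, 1b, 2 and 3, against 9.05, 8.75, 9.86 and 9.71 on control RIP arrays 1a, 1b, 2 and 3, and 10.54, 10.78 and 10.94 on the input arrays. The groups were separated by 1.19 log2 units, the widest margin of the 45, and both technical arrays of replicate 1 lay at the low end of the control RIP values. Smaug RIPs averaged 7.36 ± 0.28 and control RIPs 9.49 ± 0.51 (SD, n = 3 each), a log2 difference of -2.13 (standard error 0.59 from limma), or 4.37-fold lower. This transcript is read by a single probe, the only such member, and its Smaug RIP signal was close to the medians of all transcripts on those arrays, 7.27 to 7.33.

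FBtr0071343 was next and is read by 4 probes. Its log2 signal was 8.79, 7.87, 7.52 and 7.61 on Smaug RIP arrays 1a, 1b, 2 and 3, against 9.64, 9.93, 10.25 and 9.31 on control RIP arrays 1a, 1b, 2 and 3, and 11.60, 11.35 and 11.31 on the input arrays. Smaug RIP array 1a stood 0.92 above its technical replicate 1b and narrowed the margin to 0.52. Smaug RIPs averaged 7.82 ± 0.44 and control RIPs 9.78 ± 0.47 (SD, n = 3 each), a log2 difference of -1.96 (standard error 0.64 from limma), or 3.90-fold lower. Within pairs of arrays with the same number the FBtr0071343 difference ran from -2.73 in replicate 2 to -0.85 between the 1a arrays.

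The third member in this order is read by 2 probes and had the smallest loss in the control RIP relative to its input. Its signal was 8.48, 8.42, 7.01 and 7.46 on Smaug RIP arrays 1a, 1b, 2 and 3, against 10.04, 9.56, 9.47 and 9.34 on control RIP arrays 1a, 1b, 2 and 3. The control RIP mean of 9.54 ± 0.24 (SD, n = 3) lay 0.09 below the mean input of 9.63, whereas the Smaug RIP mean of 7.64 ± 0.74 (SD, n = 3) lay 1.99 below it on the log2 scale. It was the only member whose control RIP mean came within 1 log2 unit of its input.

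**Figure D2:**
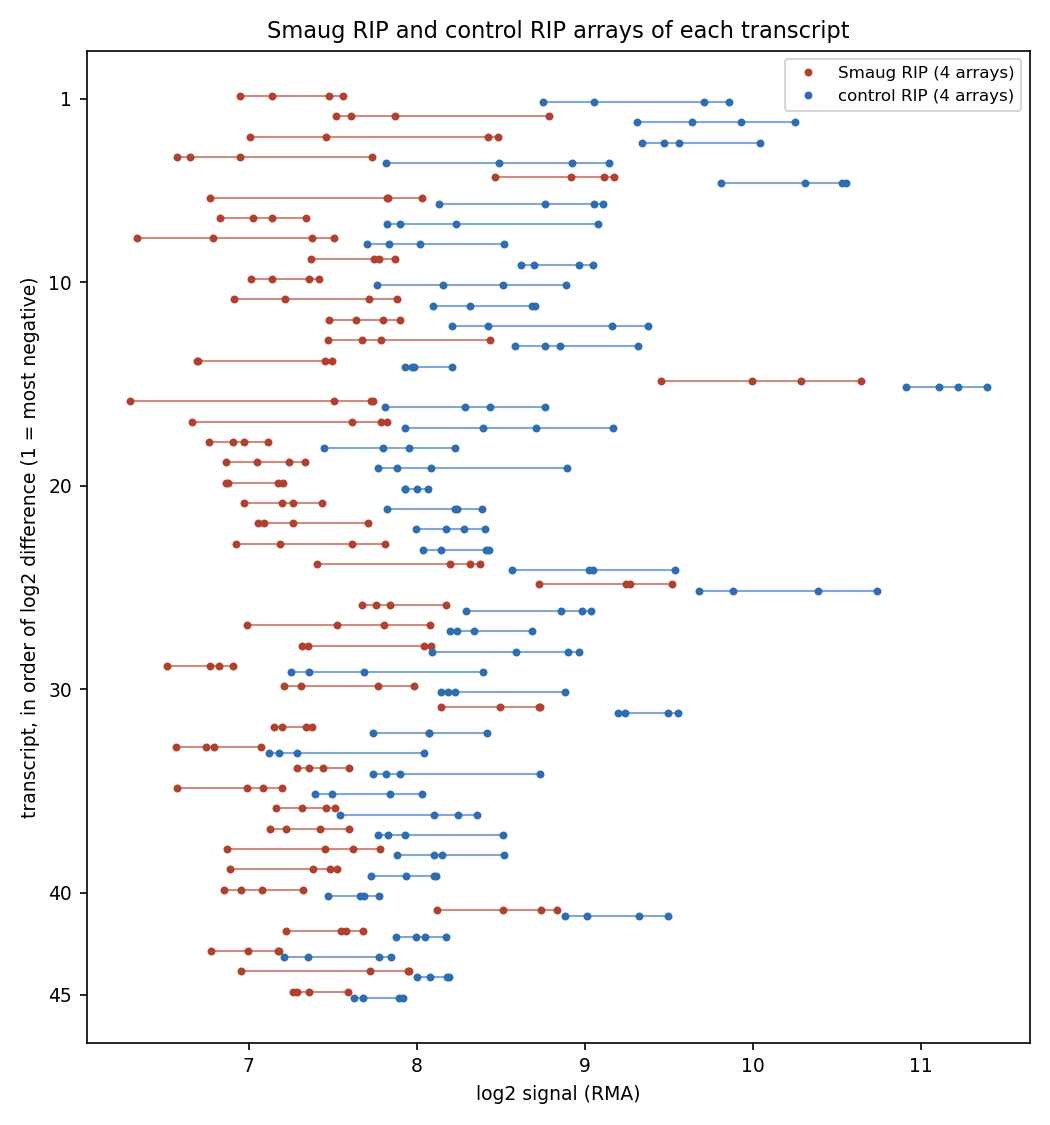
Log2 signal (x axis) of the 4 Smaug RIP arrays (red) and the 4 control RIP arrays (blue) of each of the 45 transcripts, in order of log2 difference from the most negative at the top; lines join the lowest and highest array of a RIP. The groups never overlap, as the rule requires, but the margin between them narrows to 0.006 log2 units.

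Over the 45 members the log2 difference of Smaug RIP minus control RIP ranged from -2.13 to -0.39, with a median of -0.98, and the 3 replicate medians had an SD of 0.13. The median over the window was 0.03, and that over all 7716 transcripts with an input above the median was 0.04. It was at least 2-fold in 20 of the 45, at least 1.5-fold in 41 and at least 3-fold in 4. Transcripts of the window chosen in the same way for higher Smaug RIP signal had a median difference of 1.81. The sizes of the members' differences were set in part by the rule, which admits small differences where the arrays of a RIP lie close together. The replicate SD of a member was 0.27 (Smaug RIPs) and 0.26 (control RIPs) in the median, whereas that of a window transcript was 0.50 (Smaug RIPs) and 0.57 (control RIPs).

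The rule and the size of the difference picked different transcripts. Of the 10 most negative differences in the window 4 belonged to members, and of the 100 most negative 18. The most negative of all, -2.76, was that of a transcript outside the members, read by 1 probe. Its Smaug RIP arrays 1a, 1b, 2 and 3 gave 8.56, 6.84, 7.04 and 7.82, against 10.08, 8.27, 11.55 and 10.12 on the control RIP arrays, so that Smaug RIP array 1a overlapped control RIP array 1b by 0.29.

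The margin between the highest Smaug RIP and the lowest control RIP array was small in most members. It had a median of 0.20 log2 units, exceeded 0.5 in 6 members and was under 0.1 in 10. The member closest to the threshold had 8.09 on its highest Smaug RIP array and 8.09 on its lowest control RIP array, a margin of 0.006, and the next margins were 0.028 and 0.031. Just outside the rule, the arrays of the nearest transcripts overlapped by 0.008, 0.018 and 0.019, with log2 differences of -0.99, -0.67 and -0.43, which lie among those of the members. A further 0.1 log2 units of overlap would have admitted 35 more transcripts. Smaug RIP array 1a was the highest in 23 members and 1b in 13. Control RIP array 3 was the lowest in 18 and 1a in 12, so these arrays decided the margin most often. The same counts were not made over the window. There, Smaug RIP arrays 1a and 1b had the highest medians of the Smaug RIPs (8.38 and 8.01). Control RIP array 3 had the lowest window median of the control RIPs (7.52), whereas that of 1a was 8.09. The counts are therefore not shown to be particular to the members.

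**Figure D3:**
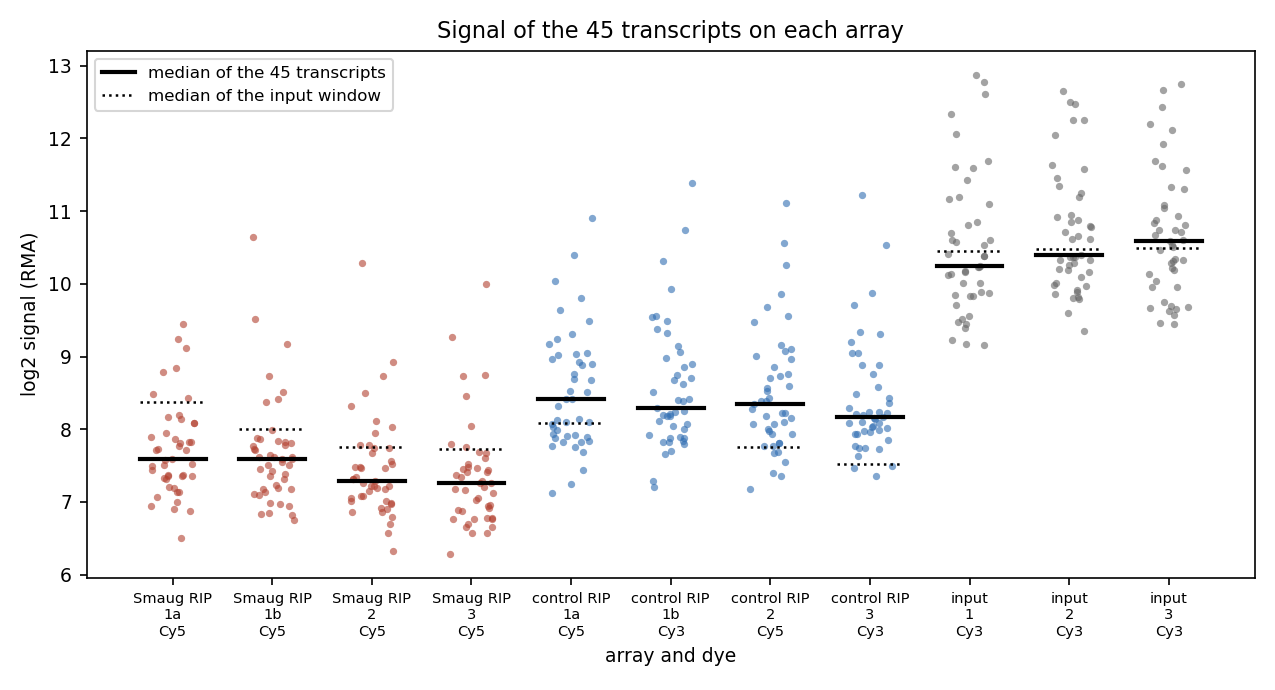
Log2 signal (y axis) of the 45 transcripts on each of the 11 arrays (x axis, with dye); points are transcripts, solid bars their median and dotted bars the median of the 3558 transcripts of the input window. On Smaug RIP arrays the median of the 45 lay at 7.26 to 7.59, below that of the window, and on control RIP arrays at 8.17 to 8.42.

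The members were both low in Smaug RIPs and high in control RIPs relative to transcripts of similar abundance. Their median log2 signal was 7.59, 7.59, 7.29 and 7.26 on Smaug RIP arrays 1a, 1b, 2 and 3, where the window had medians of 8.38, 8.01, 7.75 and 7.73. It was 8.42, 8.29, 8.34 and 8.17 on control RIP arrays 1a, 1b, 2 and 3, where the window had medians of 8.09, 8.30, 7.76 and 7.52. On control RIP array 1b the members therefore did not stand above the window, and on control RIP array 3 they stood highest above it. Ranked within the window, the mean of the members had a median percentile of 17.1 in Smaug RIPs, against 74.4 in control RIPs, and 39 of the 45 were in the lower 50% of the window in Smaug RIPs and 39 in the upper 50% in control RIPs. Both shifts follow from choosing on these arrays. In the input, which the rule used only for the window, the members lay at a median percentile of 46.5, with a median log2 signal of 10.38 against 10.47 in the window.

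The Smaug RIP signal of many members was at the level of a typical transcript of the array, although they were abundant in the input. The mean of 17 of the 45 was below 7.27, the lowest median of all transcripts on a Smaug RIP array. In the window, a Smaug RIP mean of 7.27 lay at the 12.6th percentile. In 6 members all 4 Smaug RIP arrays were below the median of their array, and in 11 all 4 were above it, compared with 48.7% of the window with all 4 above. The share of the window with all 4 below was not counted. In control RIPs 42 of the 45 had all 4 arrays above the median of their array, compared with 40.2% of the window. Transcripts with an input up to the median, which include those not expressed, had median signals of 6.94 to 7.17 on Smaug RIP arrays and 7.02 to 7.26 on control RIP arrays. How far signal near this level follows the amount of RNA was not tested.

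A few members kept a high signal in both RIPs. The highest had 9.45, 10.64, 10.29 and 10.00 on Smaug RIP arrays 1a, 1b, 2 and 3, against 10.91, 11.39, 11.11 and 11.22 on control RIP arrays 1a, 1b, 2 and 3. Its mean input of 12.76 was the highest of the members, and its log2 difference was -1.05. It ranked at the 95.8th percentile of the window in Smaug RIPs and at the 99.9th in control RIPs. The 44 others reached at most 9.13 in the Smaug RIP mean.

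**Figure D4:**
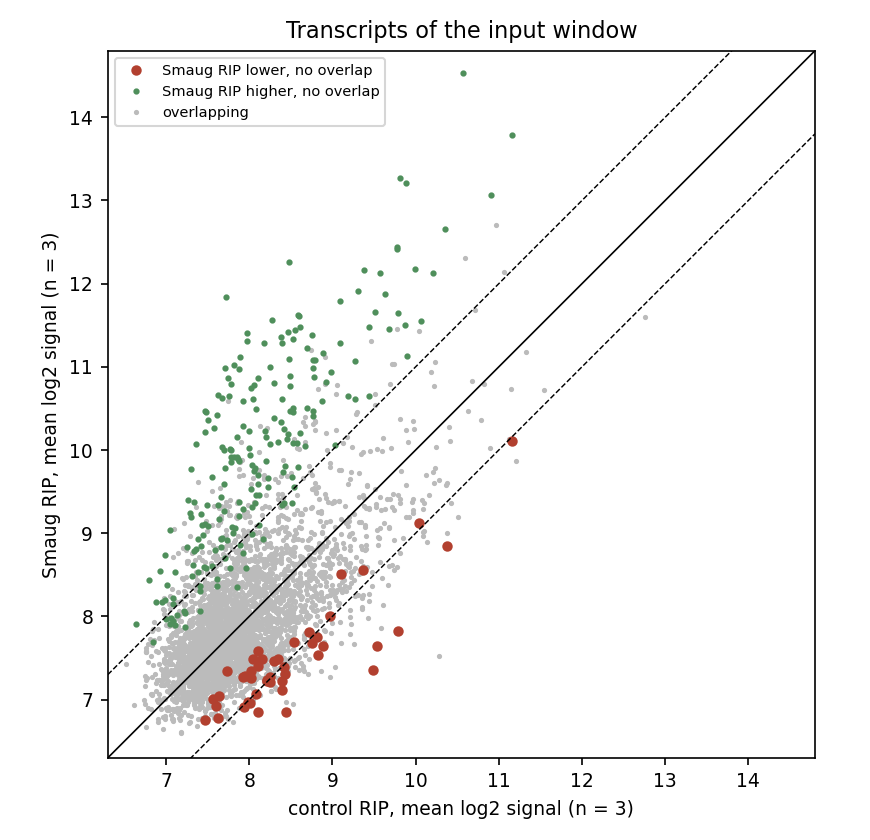
Mean log2 signal in Smaug RIPs (y axis) against that in control RIPs (x axis) for the 3558 transcripts of the input window, n = 3 per RIP; red points are the 45 members, green points the 211 transcripts higher in every Smaug RIP array, grey points the rest. The solid line marks equal signal and the dashed lines a 2-fold difference, which 20 of the 45 reached.

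Relative to the input, all 45 members had a lower log2 signal in both RIPs. So did nearly all of the window, with 98.4% of its transcripts below the input for Smaug RIP and 99.9% for control RIP. The count of 45 therefore does not set the members apart. Among the members, the ratio of Smaug RIP to input had a median of -3.09 (range -4.86 to -1.99). The ratio of control RIP to input had a median of -2.08 (range -3.48 to -0.09). In the window these medians were -2.57 for Smaug RIP and -2.62 for control RIP. Inputs and RIPs were deposited on different scales, log2 and linear, and no source used here says whether one normalization covered both, so these ratios were not tested.

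Most members, like most of the window, were read by 4 or 5 probes. Of the members 22 (48.9%) were read by 5 probes, 17 (37.8%) by 4, 2 by 3, 3 by 2 and 1 by 1, whereas 58.3% of the window was read by 5. The members with fewer probes had the more negative differences: the median was -0.84 with 5 probes, -1.03 with 4, -1.22 with 3 and -1.27 with 2. The last 2 medians rest on 2 and 3 members. Medians by number of probes were not taken over the window, so this order is not shown to be particular to the members. Across the 45 members the Spearman correlation of the difference with the number of probes was 0.40, with the mean control RIP signal -0.59, with the mean Smaug RIP signal -0.05 and with the mean input -0.23. These describe transcripts on the same 8 RIP arrays, and the control RIP signal is itself part of the difference.

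Because the rule set every member below the control RIP arrays of both dyes, a negative difference against each dye was fixed by the choice, and only its size is described. Since every Smaug RIP array was Cy5, the difference was read against the control RIP arrays of each dye. It had a median of -0.99 against the Cy5 control RIP arrays (1a and 2) and of -0.96 against the Cy3 control RIP arrays (1b and 3), and it was more negative against Cy5 in 27 of the 45. Both Cy3 control RIP arrays exceeded both Cy5 ones in 7 members, and both Cy5 exceeded both Cy3 in 4. These counts of members were not made over the window, and nothing is read from them. Control RIP array 1b (Cy3) minus 1a (Cy5), which carry the same RNA, had a median of 0.07 in the members, against 0.23 in the window. This difference was below 0 in 20 of the 45 (44.4%), against 36.4% of the window. The 2 arrays also have different image names, so dye and any other difference between the arrays cannot be told apart in this pair. With all 4 Smaug RIP arrays kept, 312 transcripts of the window lay below both Cy5 control RIP arrays and 186 below both Cy3 ones, and the 45 are those in both sets.

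**Figure D5:**
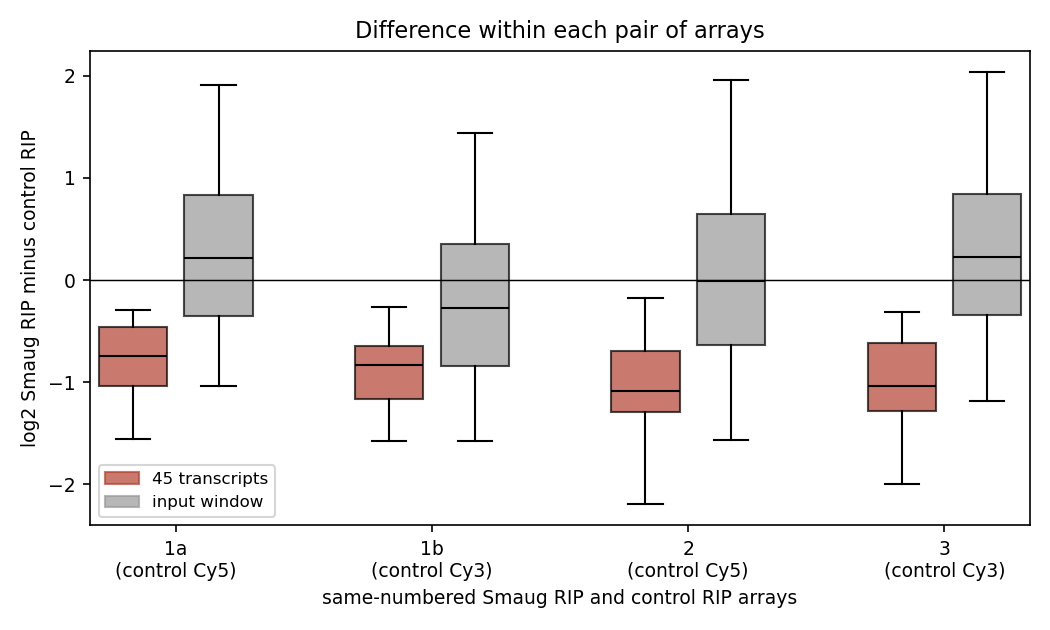
Log2 difference of Smaug RIP minus control RIP (y axis) within each pair of same-numbered arrays, with the dye of the control RIP (x axis); boxes span the quartiles with the median, whiskers the 5th to 95th percentiles, for the 45 members (red) and the 3558 transcripts of the window (grey). The members' medians lie between -1.08 and -0.74, while those of the window lie between -0.28 and 0.22.

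Within the pairs of arrays of 1 number, whose image names share their start, the members' median difference was -0.74 for 1a, -0.83 for 1b, -1.08 for replicate 2 and -1.03 for replicate 3. The window itself was displaced in these pairs, with medians of 0.22 for 1a, -0.28 for 1b, -0.01 for replicate 2 and 0.22 for replicate 3. The rule sets every member below 0 in each pair, so the members' lower position is part of the choice.

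All 8 RIP arrays entered the rule, so no array is left on which the 45 could be read anew. The rule was therefore repeated without the arrays of 1 replicate number, and the transcripts it chose were read on that replicate, a step added after the data were seen. Chosen without replicate 1, 555 transcripts of the window were lower, of which 361 (65.0%) were lower in replicate 1, where 53.5% of the whole window was. Chosen without replicate 2, 127 were lower, of which 86 (67.7%) were lower in replicate 2, against 50.6% of the window. Chosen without replicate 3, 281 were lower, of which 124 (44.1%) were lower in replicate 3, against 39.3% of the window. The median difference of these 3 sets was -0.74, -0.87 and -0.96 on the replicates that chose them and -0.22, -0.32 and 0.11 on the replicate left out. The window had medians of -0.05, -0.01 and 0.22 on replicates 1, 2 and 3. Each set thus lay below the window on the replicate left out, and in replicate 3 both medians were above 0. All 45 members are in each set by the rule, but most transcripts of each set are not members. These values therefore describe the 3 sets and not the 45. The sizes of the sets expected by chance were not calculated. Transcripts chosen in the same way as higher in Smaug RIPs stayed higher in 68.6%, 80.9% and 85.1% on replicates 1, 2 and 3, with medians of 0.47, 1.04 and 1.16 there. Of the whole window, 46.5%, 49.4% and 60.7% were higher on replicates 1, 2 and 3. In replicate 3 the control RIP was Cy3 and in replicate 2 Cy5, and the part of dye in this was not tested.

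In the fit over all 7716 transcripts with an input above the median, limma called 2 transcripts lower in Smaug RIPs at a Benjamini-Hochberg adjusted p under 0.05, 0.0259% of those fitted, and neither was among the members. Of the 45, 0 passed the adjustment. At an unadjusted p under 0.05, limma had 203 of the 7716 transcripts lower (2.63%), of which 76 were in the window and 22 were members. Nothing is read from these counts, since the rule and the fit used the same contrast. With the replicate number as a block, limma called 29 transcripts lower, 4 of them members.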

How the data were processed

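RNA from RIPs and input was hybridized to NimbleGen 4x72K arrays, and the authors normalized the signals by RMA with quantile normalization to 1 value per transcript from 1 to 5 probes. The deposited values of the 8 RIP arrays still differed in distribution. Their 95th percentile over all transcripts ran from 8.75 (control RIP array 3) to 9.54 (Smaug RIP array 1a) on the log2 scale. Input values were deposited on the log2 scale (5.01 to 15.99) and RIP values as linear intensity (52.4 to 54286), of which log2 was taken here. The number of probes per transcript, a column of other kind, was used as deposited. The series table holds the same values (0 differ). Members and gene lists were chosen with earlier results of these data known.

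Arrays 1a and 1b were averaged. The contrast of Smaug minus control RIPs was fitted by limma (version 3.58.1, run under R 4.3.3) using lmFit and a trended eBayes, and p-values were Benjamini-Hochberg adjusted over 7716 transcripts above the median input (6.85). The fit was tested on simulated data with independent values and no effect of dye or shared image, so that test does not bear on these. The rule for naming identifiers gave members paired with a gene symbol, of which there were 0, and otherwise the 2 most negative differences. Other transcripts are given by rank, chosen after their values were seen. The study compared the RIPs with SAM, not used here. Alternatives changed the input window, dye, scaling, replicates, filter and block. RT-qPCR and polysome data were not analysed here.

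Smaug and control RIP arrays of 1 number share the start of their image names, which the inputs share with replicate 2. Smaug RIP 3 and control RIP 3 also share the array position and differ in the channel, as do Smaug RIP 2 and control RIP 2 each with 1 input. The sources used here do not say what this start marks.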

Additional observations from a re-analysis of the deposited data

How the results depend on the processing

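The members' median log2 difference of -0.98 was between -1.06 and -0.85 under the alternatives that can move it (dye, scaling, separate arrays and leaving out single replicates), while the replicate block, the input filters and the trend leave a difference of means as it is. The difference of control RIP arrays 1b and 1a in the members was 0.07, against 0.005 after quantile normalization and 0.10 after subtracting medians. Members cannot change sign when arrays are left out, since their arrays do not overlap. The number of transcripts meeting the rule did not hold. Against 45, it was 91 with inputs above the median, 86 with no high inputs left out, 163 with 1a and 1b averaged, 312 with Cy5 and 186 with Cy3 control arrays only, 95 (44 of the 45 among them) when the 8 RIP arrays were quantile normalized, and 62 to 555 without single replicates, where fewer arrays have to be separated: 555, 127 and 281 without replicate 1, 2 and 3 of both RIPs, 393, 62 and 81 without Smaug RIP replicate 1, 2 and 3, and 132, 98 and 228 without control RIP replicate 1, 2 and 3. Subtracting each array's median kept 39 of the 45 and added none. Where not stated otherwise, the cause was not tested.

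By limma, 2 transcripts and 0 members were lower. These counts were 29 and 4 with the replicate block, 5 and 0 with dye as a covariate (0.5 for the mean of 1a and 1b), 10 and 2 with 4 arrays as separate samples, 6 and 3 with RIP arrays quantile normalized, 32 and 3 when only Cy5 arrays were used, 4 and 1 with the filter at the 75th percentile, 5 and 3 without a trend, 72 and 4 with the image name as a block and 4 arrays (added after the data were seen), and 0 to 49 and 0 to 2 without single replicates, where the transcripts were 0, 0 and 49 without replicate 1, 2 and 3 of both RIPs, 0, 0 and 8 without Smaug RIP replicate 1, 2 and 3, and 8, 1 and 31 without control RIP replicate 1, 2 and 3. As a check of pairing, deviations from the mean of each RIP were correlated between Smaug and control RIPs of 1 number, with r of 0.31, 0.06 and 0.20 for replicates 1, 2 and 3. Each Smaug RIP correlated best with its own number, but r did not pass 0.1 in every pair, so the numbers were not taken to pair the samples. The differences of FBtr0080289 and FBtr0071343 stayed between -2.47 and -1.94 and between -2.43 and -1.58. The counts of gene lists were not run.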
